A study of Mus musculus with 120 samples.

Results

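Leukocytes of the mouse liver, sorted one cell per well by the surface marker CD45, were compared between 8 and 2 weeks on a methionine and choline deficient diet (MCDD). The wells were those listed with 1 cell on every liver CD45+ plate labelled MCDD at either week, which gave 7600 of the 44840 cell wells of the series. They came from 20 of its 118 plates, with 10 plates and 3800 cell wells at each week. All mice carried the strain label c57bl and no transgene or deletion is named. The groups used are MCDD at week 2, MCDD at week 8, and, for 1 comparison, a normal diet (ND) at the same weeks with 7220 cell wells on 19 plates. The labels give no age.

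CD45 is a phosphatase on the surface of leukocytes, so a CD45+ sort of liver takes resident macrophages (Kupffer cells), monocytes, neutrophils, dendritic cells, and T, B and NK cells together. Without choline and methionine the liver cannot make enough phosphatidylcholine to export its fat, and mice on MCDD develop fatty liver with inflammation and later fibrosis, which is why the diet serves as a feeding model of steatohepatitis. The number of genes detected in a well depends in general on how much mRNA the cell holds, how much of it is captured, and how deeply the well is sequenced. The deposited tables used here give 2 readouts for each well, how many genes were detected in it and its total count. Values per gene were not analysed here, so no transcript is named, the CD45+ label could not be checked against marker genes, and no well could be given a cell type. Whether the mix of cell types differed between the weeks was not tested.

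Each plate had 380 wells with 1 listed cell and 4 listed as empty. Plates carry numbers such as 1.6 or 2.6 in the labels, whose meaning is not given, and 2 week 2 plates share the number 2.1, told apart here by their amplification batch names AB183 and AB186. No label ties a plate to an animal, so each p-value below sets a difference against plate-to-plate spread only, part or all of which can be technical. All 20 plates used the same 384 well barcodes, and no pair of plates had identical totals in over 50% of its wells. Sequencing batch SB12 held 2 MCDD plates of each week and batch SB16 held 4 of each. These 12 plates carry the tests between the weeks, except a sign-flip test over same-numbered plates of all batches, given near the end. Tests between the diets add the ND plates of the same 2 batches. The other 8 MCDD plates lie in batches with 1 week only, where batch and week cannot be told apart. The summed total of the cell wells ranged from 13736529 to 48743533 per plate at week 2 and from 7074192 to 36626296 at week 8. The week 2 plate 1.1 had the highest totals of its week, and 1 empty well of the week 2 plate 2.6 held a larger total than any of the 7600 cell wells. Among shared-batch MCDD plates, the week 8 plates 1.6 and 1.2 and the week 2 plate 1.1 had empty-well medians above 50 genes. Results are given with and without these plates below. The week 8 plate 1.3, in a batch with 1 week only, had an empty-well median of 314.5 genes, and 63.2% of its cell wells had no more than that. It enters no test within the shared batches.

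The first question was which wells differed between the weeks, the poorest, the middle or the richest in genes. Liver CD45+ cells gave fewer genes at week 8 at every percentile examined, and on the log2 scale the difference was greatest among the poorest wells. On the week 8 plates 1.6 and 1.2 of the shared batches, the 10th percentile was 34 and 30 genes. These values lay below the median of the plate's own empty wells, 78.5 and 91.5 genes. The poorest wells there cannot be told from background by their genes. The 10th percentile of a plate averaged 139.8 ± 37.5 genes on 6 plates at week 2 and 46.1 ± 18.7 on 6 at week 8, and the 90th percentile 1063.5 ± 119.7 and 751.1 ± 173.2 (SD, n = 6). Between them, the 25th percentile averaged 274.2 ± 58.4 and 96.7 ± 23.1 genes, the median 498.7 ± 78.6 and 242.0 ± 42.0, and the 75th percentile 765.0 ± 97.3 and 468.6 ± 99.98 (SD, n = 6).

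In batch SB12 the 10th, 50th and 90th percentiles of genes were 115.8, 458.5 and 972 on the week 2 plate 1.6 and 78, 387 and 929.2 on the week 2 plate 2.6. The week 8 plates of that batch had 34, 228 and 825.5 genes (plate 1.6) and 47, 228 and 695.7 (plate 2.6). Both week 8 plates of SB12 thus lay below both week 2 plates at all 3 percentiles.

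In batch SB16 the week 2 plates had 171.8, 557.5 and 1141.5 genes (plate 1.1) and 167.8, 571 and 1210.2 (plate 2.2). The 2 plates numbered 2.1 had 168.6, 446 and 970 (AB183) and 136.7, 572 and 1157.8 (AB186). At the median the 4 week 2 plates of SB16 spanned 446 to 572 genes. The week 8 plates of SB16 had 81.9, 309.5 and 884.1 genes (plate 1.1) and 38.9, 188 and 513.4 (plate 2.1). The last 2 had 30, 270 and 972.1 (plate 1.2) and 44.9, 228.5 and 615.9 (plate 2.2). All 4 lay below every week 2 plate of SB16 at the 10th and 50th percentile. At the 90th percentile the week 8 plate 1.2, with 972.1 genes, lay above the week 2 plate AB183 with 970. The plate with the lowest 10th percentile of these 6 week 8 plates, 1.2, was thus the one with their highest 90th percentile.

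**Figure D1:**
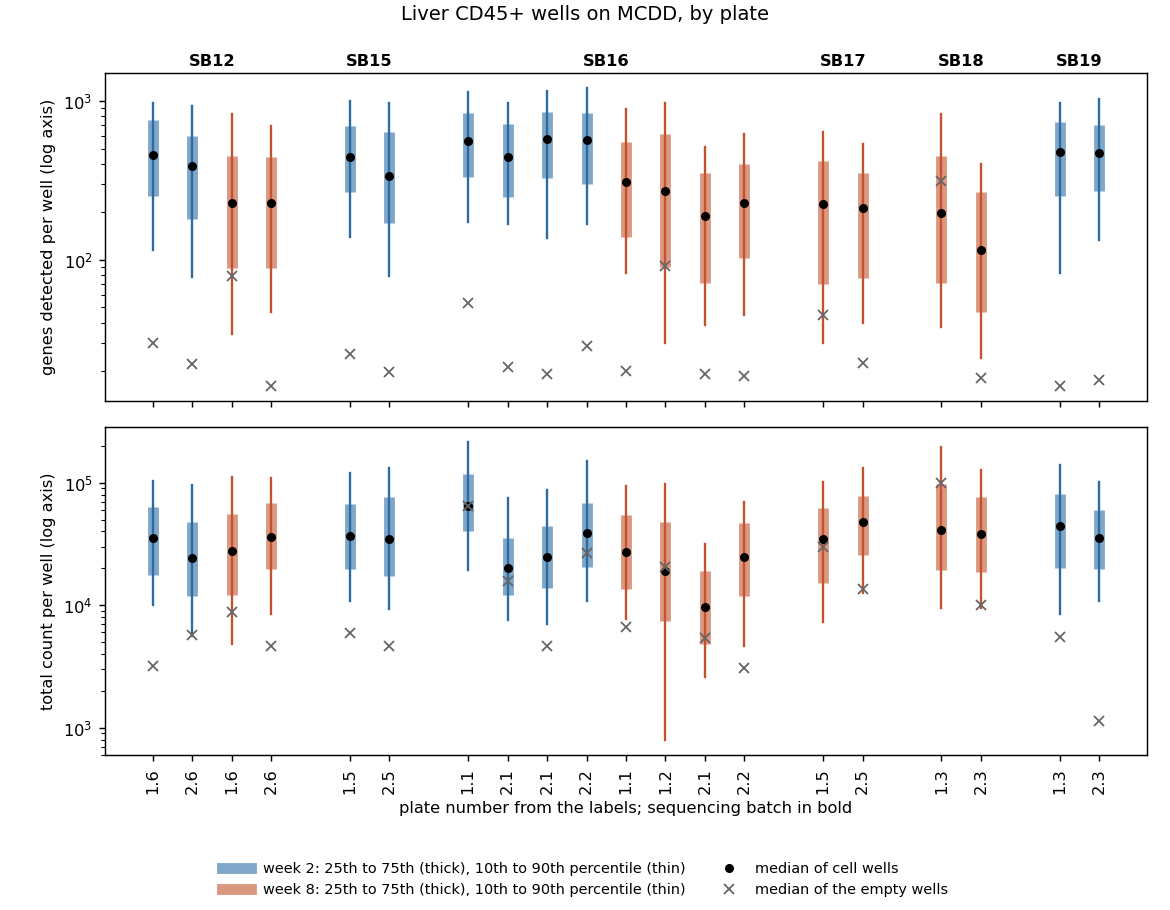
Genes detected (upper panel) and total count (lower panel) over the cell wells of each MCDD plate, on log axes, with the plate numbers of the labels on the x axis and the sequencing batch above. Thick bars run from the 25th to the 75th percentile, thin lines from the 10th to the 90th, points mark medians and crosses the median of the 4 empty wells. Median genes at week 8 reach 309.5 at most and those at week 2 start at 338.5, while the totals of the weeks overlap.

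The week 8 minus week 2 difference in log2(percentile + 1), averaged over both batches, was -1.61 ± 0.24 (SE) at the 10th percentile, a 3.04-fold lower number of genes. It was -1.49 ± 0.17 at the 25th (2.82-fold lower), -1.04 ± 0.13 at the median (2.06-fold lower) and -0.72 ± 0.15 at the 75th (1.65-fold lower). Each of these 4 had adjusted p = 0.00595 by two-sided exact permutation over 6 against 6 plates, from the smallest p that its 420 relabellings allow, 0.00476. At the 90th percentile the difference was -0.53 ± 0.16 (1.44-fold lower, adjusted p = 0.00952 in the exact permutation test), with 5 of 6 week 8 plates below every week 2 plate of their batch. Within SB12 alone the differences at these 5 percentiles were -1.23, -1.25, -0.88, -0.60 and -0.33, and within SB16 alone -1.79, -1.61, -1.12, -0.78 and -0.63. Both batches therefore gave the same sign at every percentile, with the larger size in SB16. In SB16 alone, with 4 against 4 plates, the 90th percentile did not pass (adjusted p = 0.0571, exact permutation test).

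**Figure D2:**
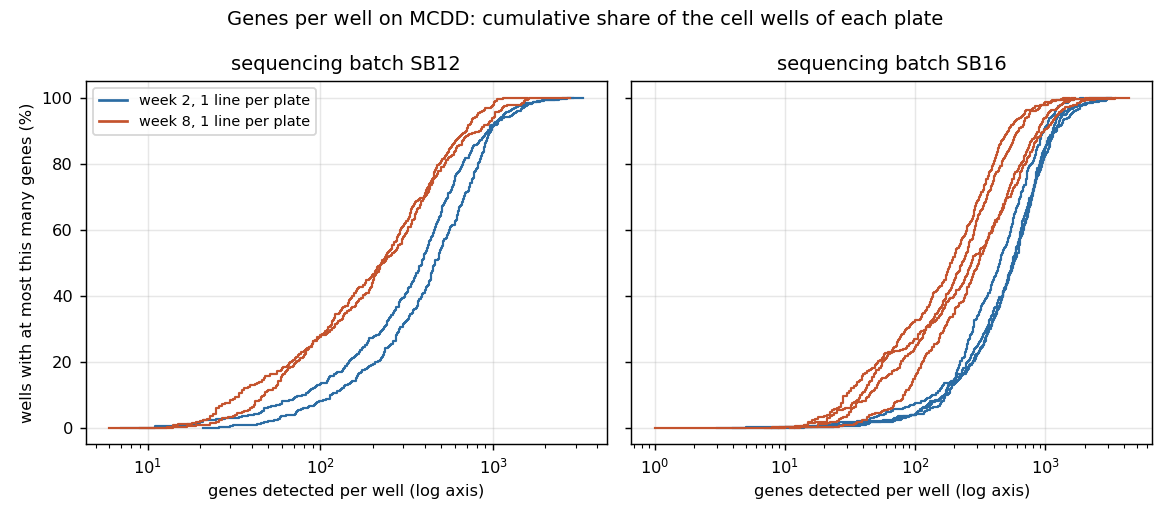
Cumulative share of the cell wells of each MCDD plate (y axis, percent) with at most the number of genes on the x axis (log axis), for the 2 batches that held both weeks, 1 line per plate. The week 8 lines lie to the left of the week 2 lines over most of the range. In SB16 the week 8 line of plate 1.2 reaches the week 2 lines at the 90th percentile, with 972.1 genes against their lowest of 970. The other week 8 lines of SB16 stay lower there, with 513.4 to 884.1 genes.

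Shares of wells past fixed numbers of genes were lower at week 8 too. Wells with at least 100 genes made up 93.1% ± 3.6 of a week 2 plate and 74.2% ± 5.7 of a week 8 plate (SD, n = 6), a difference of -18.9 ± 2.7 percentage points (SE). Every week 2 plate had 86.6% or more and every week 8 plate 84.5% or less. Wells with at least 500 genes were 49.2% ± 9.2 and 21.7% ± 7.9 (SD, n = 6), a difference of -27.5 ± 4.5 points, again with no overlap. Both passed the exact permutation test with adjusted p = 0.00714. Wells with at least 1000 genes were 12.2% ± 4.1 and 4.5% ± 3.2 (SD, n = 6), a difference of -7.72 ± 1.94 points (adjusted p = 0.00952, exact permutation test). Here the groups met, with the highest week 8 plate at 9.47% (plate 1.2) and the lowest week 2 plate at 8.16% (plate 2.6). The 95% Wilson interval of a single plate's share had a half-width of at most 5.00 points, for counting error only.

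Very rich wells were still present at week 8. The well with the most genes of all 7600 lay on the week 8 plate 1.2 and had 4355, against a highest value of 3315 at week 2. By plate the richest well went the other way, with a median over plates of 2929 genes at week 2 and 1732.5 at week 8. On 7 of 10 week 8 plates it had fewer genes than on every week 2 plate. At the other end, wells under 50 genes numbered 136 of 3800 at week 2 and 589 of 3800 at week 8, over all 20 plates. Per plate of the shared batches they made up 2.11% to 6.32% of wells at week 2 and 4.74% to 19.2% at week 8.

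The wells of a plate were also more unequal in genes at week 8. The 90th percentile was 8.1 ± 2.2 times the 10th at week 2 and 18.2 ± 8.4 times at week 8, and the 75th was 2.84 ± 0.30 and 4.95 ± 1.09 times the 25th (SD, n = 6 plates). On the log2 scale the first ratio differed by 1.08 ± 0.29 and the second by 0.77 ± 0.14 (SE), and both passed the exact permutation test at the smallest p possible (adjusted p = 0.00476). Among wells with at least 100 genes the 2 ratios differed by 0.08 ± 0.13 and 0.10 ± 0.08 and neither passed (adjusted p = 0.529 and 0.467, exact permutation test). That minimum is set on the genes themselves and holds the low percentiles of both weeks near 100, which limits how far the ratios can differ. How much of the change in the ratios comes from this was not tested. In untransformed genes the order of the percentiles was the opposite, with differences of -93.7 genes at the 10th percentile, -257 at the median and -312 at the 90th.

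The differences were also computed over wells with a minimum number of genes. With only wells of at least 50 genes kept, the differences at the 10th, 50th and 90th percentiles were -0.88, -0.79 and -0.45. At 100 genes or more they were -0.47, -0.62 and -0.39, and at 200 or more -0.22, -0.41 and -0.35. All of these passed the exact permutation test, with adjusted p between 0.00595 and 0.0238. A minimum of this kind removes more wells at week 8 than at week 2 and sets the low percentiles close to the minimum. It thus limits how far the low percentiles can differ. How much of the smaller differences comes from this was not tested.

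The total count per well, the measure of depth at hand, differed less clearly than the genes did. The plate median of the total was 34732.6 ± 16290 on the week 2 plates and 23998.3 ± 8893 on the week 8 plates (SD, n = 6). The log2 difference was -0.53 ± 0.37 (SE, adjusted p = 0.321, exact permutation test). At the 10th percentile of the total it was -1.28 ± 0.58 (p = 0.0429, adjusted p = 0.214, exact permutation test), and at the 25th, 75th and 90th it was -0.73, -0.36 and -0.51, none of which passed. A p that misses the threshold does not show that the depths were alike. The batches did not go the same way: in SB12 the week 8 plates had the higher totals from the 25th percentile up (0.10, 0.10, 0.16 and 0.15), and in SB16 the lower ones (-1.14, -0.84, -0.61 and -0.84).

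**Figure D3:**
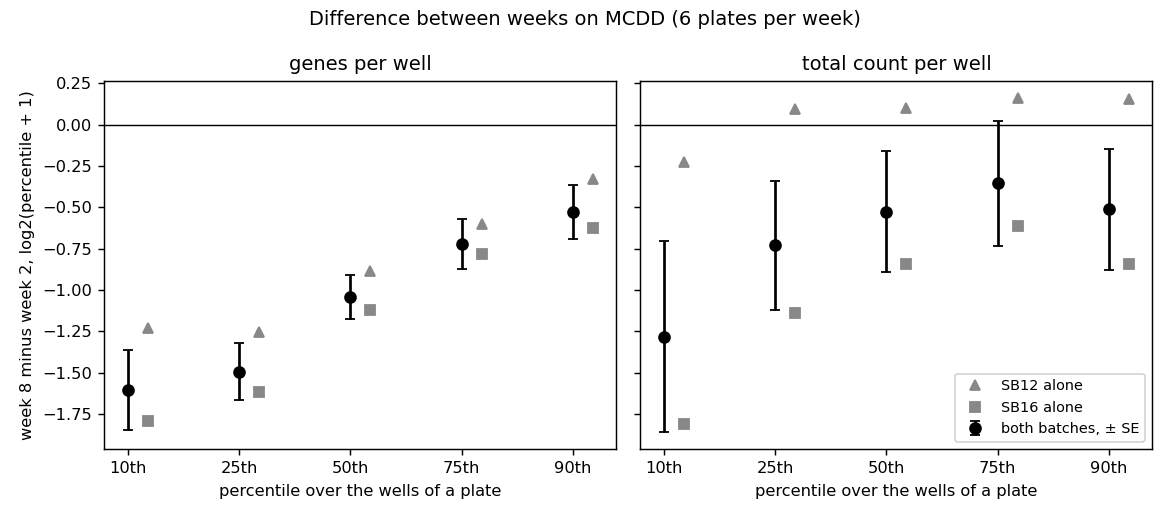
Week 8 minus week 2 difference in log2(percentile + 1) of genes (left) and total count (right) at 5 percentiles of the wells of a plate. Black points with bars are the mean over both batches ± SE (6 plates per week), triangles batch SB12 alone and squares batch SB16 alone. For genes every point lies below 0, from -1.61 at the 10th to -0.53 at the 90th percentile, while for the total SB12 lies above 0 from the 25th percentile up.

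Every week 8 plate of the shared batches had fewer median genes than every week 2 plate, whichever had the higher total. Of the 20 pairs of a week 8 and a week 2 plate of the same batch, the week 8 plate had the lower median total in 14 and the higher in 6. Of these 6 pairs, 2 are given as examples. In SB12 the week 8 plate 2.6 had a median total of 35817.5 and 228 genes, and the week 2 plate 2.6 had 24116.5 and 387 genes. In SB16 the week 8 plate 1.1 had 27363 and 309.5 genes, and the week 2 plate AB183 had 20275.5 and 446 genes. Among the 8 plates in batches with 1 week only, the median total averaged 37639 ± 4359 in the week 2 plates and 40544 ± 5504 in the week 8 plates (SD, n = 4). Their median genes averaged 430.9 ± 62.9 and 186.3 ± 49.0, with the highest week 8 plate at 222.5 and the lowest week 2 plate at 338.5.

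To compare wells of like total, the MCDD cell wells of each shared batch were divided by their total into 5 bins of equal size, and the plate's median of log2(genes + 1) was taken in each bin. Week 8 wells had fewer genes than week 2 wells of the same bin of total. The bins are wide, so totals inside a bin were not made equal between the weeks. In SB16 the lowest ran from 50 to 9696 and the highest from 64159 to 3409522. On some plates the total hardly told cell wells from empty ones. The median total was 64268.5 in empty and 64584 in cell wells on the week 2 plate 1.1. On the week 8 plate 1.2 it was 20333.5 and 18848.5. On other plates the 2 lay far apart, with 3185 and 35593.5 on the week 2 plate 1.6. How much of a well's total was background was not tested. Over the mean of the 5 bins the difference was -0.67 ± 0.17 (SE), or 1.59-fold fewer genes (p = 0.00952, adjusted p = 0.0286 over 6 values, exact permutation test, 6 against 6 plates). Of the 6 week 8 plates, 5 lay below every week 2 plate of their batch. The difference was -0.84 in SB12 and -0.58 in SB16, and SB16 alone did not pass (adjusted p = 0.171, exact permutation test). Without the week 2 plate AB186 the value was -0.59 and no longer passed (adjusted p = 0.0571, exact permutation test).

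From the lowest bin of total to the highest, the differences were -1.17 ± 0.29, -0.73 ± 0.23, -0.64 ± 0.20, -0.49 ± 0.19 and -0.30 ± 0.18 (SE). The first 4 passed with an adjusted p of 0.0286 each and the highest bin did not (adjusted p = 0.124, exact permutation test). The 4 bins that passed were each lost without the week 2 plate AB186, with adjusted p between 0.0571 and 0.0743 (exact permutation test). Bins 2 to 4 were also lost without either week 2 plate of SB12 (adjusted p = 0.0514), and bins 3 and 4 without the week 2 plate AB183 (adjusted p = 0.05 and 0.0914, exact permutation test). Bin 4 was lost too without the week 8 plate 2.6 of SB12 (adjusted p = 0.0571) or 2.2 of SB16 (adjusted p = 0.0514, exact permutation test).

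In the lowest bin of SB12, with totals up to 12043, the median wells had 108 and 110 genes on the week 2 plates and 39 and 44 on the week 8 plates. In its highest bin, above 68319, they had 938 and 971 at week 2 and 870.5 and 587 at week 8. The plates of the 2 weeks did not overlap in either bin of SB12. In the lowest bin of SB16, with totals up to 9696, the week 2 plates had 72.5 to 205 genes and the week 8 plates 41 to 93. In its highest bin, above 64159, the ranges were 779 to 1337.5 and 663.5 to 1056.5, so that SB16 plates overlapped in both.

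The lowest bin minus the highest gave -0.87 ± 0.35 (SE, p = 0.0238, exact permutation test), a comparison added after the values had been seen. Among wells with at least 100 genes, a minimum that acts mostly on the low bins, it was -0.22 ± 0.16 and did not pass (p = 0.205, exact permutation test). In untransformed genes it turned to 106.75 ± 118.2 (SE, p = 0.367, exact permutation test), since the rich wells lost more genes in number. Wells under 100 genes fell mostly in the low bins. In the lowest bin they were 73 of 154 wells at week 2 and 131 of 150 at week 8 in SB12, and 56 of 169 and 296 of 439 in SB16. In the middle bin of SB12, with totals between 23886 and 39013, there were 0 of 151 at week 2 and 25 of 153 at week 8. In the middle bin of SB16 there were 3 of 320 and 15 of 288.

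**Figure D4:**
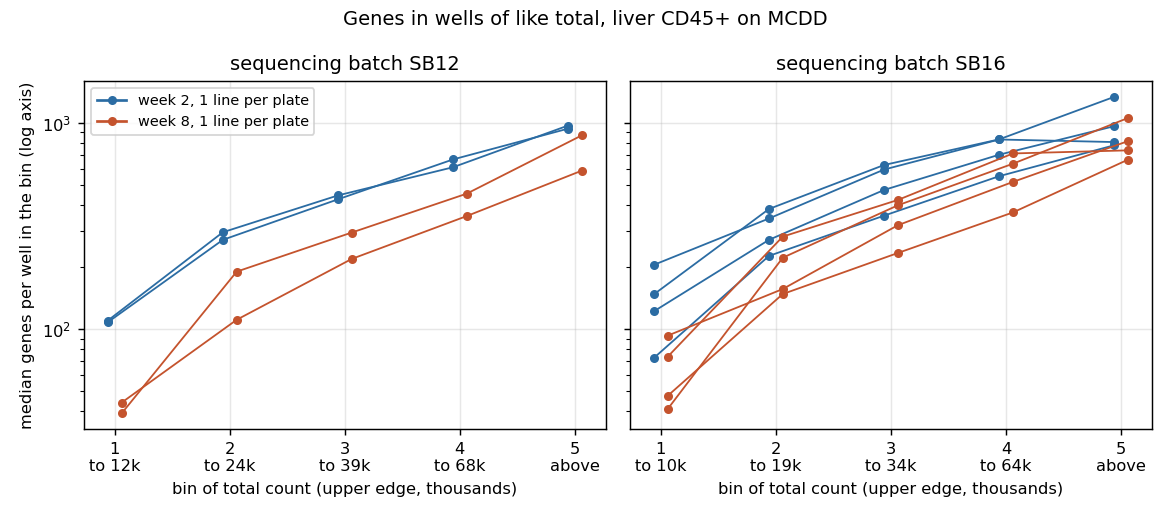
Median genes per well (log axis) in 5 bins of total count of equal size, set within each batch over MCDD wells of both weeks, with 1 line per plate and the upper edge of each bin, rounded to a multiple of 1000, under its number. In SB12 both week 8 plates lie below both week 2 plates in every bin, from 39 and 44 against 108 and 110 genes in the lowest, while in SB16 the lines of the weeks overlap in every bin.

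Other ways to match the total gave the same direction and passed, except among wells above the highest total of their plate's empty wells. There the difference was -0.53 ± 0.25 (SE) with 3 against 5 plates (adjusted p = 0.133, exact permutation test). With 10 bins the mean difference was -0.60 ± 0.17, and in a linear model of log2 genes on log2 total and its square it was -0.59 ± 0.17 (SE, p = 0.0190 for each, exact permutation test). After the median total of the plate's empty wells was taken off each well, it was -0.97 ± 0.30 (SE, adjusted p = 0.0286, exact permutation test). Among wells with at least 100 genes it was -0.41 ± 0.14 (SE, adjusted p = 0.0381, exact permutation test). Over all 20 plates without regard to batch it was -0.91 ± 0.23 (SE). Among wells with at least 200 genes it was -0.33 ± 0.12 (SE, adjusted p = 0.0357, exact permutation test), the smallest size of any setting on the log2 scale. These minima on genes also limit how far the weeks can differ. Across the wells of 1 plate, genes and totals rose together, with a Spearman correlation of 0.60 to 0.92 on the 10 week 2 plates and 0.74 to 0.87 on the 10 week 8 plates. These are descriptions over 380 wells that share a plate and its amplification.

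Wells listed as empty give the background of a plate. Over all batches, 40 such wells at each week had a median of 21 genes with a total of 6873 at week 2, and 23.5 genes with a total of 9605.5 at week 8. In the shared batches alone the order was the opposite. There 24 such wells at each week had a median of 25 genes with a total of 9760.5 at week 2, and 20 genes with a total of 5119 at week 8. Cell wells with no more genes than the median of their plate's empty wells made up 0.53% to 2.63% of a plate at week 2 and 0.53% to 25.8% at week 8 in the shared batches. The highest shares belonged to the week 8 plates 1.2 and 1.6, whose empty wells had medians of 91.5 and 78.5 genes. Without these 2 plates and the week 2 plate 1.1, with an empty-well median of 53.5, the differences at the 10th, 50th and 90th percentiles were -1.38, -1.06 and -0.66. Each kept an adjusted p of 0.0167, the smallest that the exact permutation test then allows, and the difference at matched total was -0.89 ± 0.19 (SE, adjusted p = 0.0250). A further setting left out the week 2 plate 1.1, for its high totals, and the week 2 plate 2.6, for the high total of 1 empty well. The 3 percentiles then gave -1.69, -1.07 and -0.54 and matched total -0.77. All 4 passed the exact permutation test, with adjusted p between 0.0119 and 0.0476.

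The ND plates allow the same comparison of weeks on the other diet. On ND, 5 plates at week 2 and 6 at week 8 lay in the shared batches. The 10th percentile of genes there was 111.5 ± 59.5 at week 2 and 52.8 ± 13.3 at week 8, the median 459.0 ± 96.4 and 257.8 ± 77.9, and the 90th percentile 1229.7 ± 113.5 and 656.8 ± 210.6 (SD, n = 5 and 6 plates). Week 8 minus week 2 on ND was -0.73, -0.89, -0.79, -0.80 and -0.91 at the 5 percentiles on the log2 scale. These are means of batches with different profiles. In SB12, where ND at week 2 had 1 plate, the ND differences were -0.02, -0.56, -1.02, -1.13 and -1.25 from the 10th to the 90th percentile, and in SB16 they were -1.0, -1.01, -0.70, -0.68 and -0.78. The ND difference in SB12 was thus smallest among the poorest wells, and in SB16 it was largest at the 10th and 25th percentiles. The week 2 ND plate 2.2 of SB16 had an empty-well median of 643.5 genes, and 68.2% of its cell wells had no more than that. This plate is part of these ND values and of the tests between diets below.

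The difference between the diets in the effect of week was tested directly by permuting diet labels within batch and week. MCDD minus ND was -0.92 ± 0.38 at the 10th percentile and -0.63 ± 0.25 at the 25th (SE, p = 0.0367 and 0.0342). Adjusted over the 7 values tested, neither passed (adjusted p = 0.128 for both, permutation test over all 88200 relabellings). The median gave -0.25 ± 0.21, the 75th percentile 0.09 ± 0.23 and the 90th percentile 0.39 ± 0.23 (SE), with adjusted p of 0.426, 0.808 and 0.263 in the same exact permutation test. Genes at matched total had differed between the weeks by -0.59 on ND and -0.67 on MCDD, and the difference between diets was -0.07 ± 0.33 (SE, adjusted p = 0.815, exact permutation test). No difference between the diets in the effect of week passed after adjustment.

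The MCDD minus ND difference at the 10th percentile was not called with all plates, nor in 22 of 23 runs with 1 plate left out. Without the week 8 MCDD plate 1.1, whose 10th percentile of 81.9 was the highest of its week, it was -1.12 and passed (adjusted p = 0.0386, exact permutation test).

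**Figure D5:**
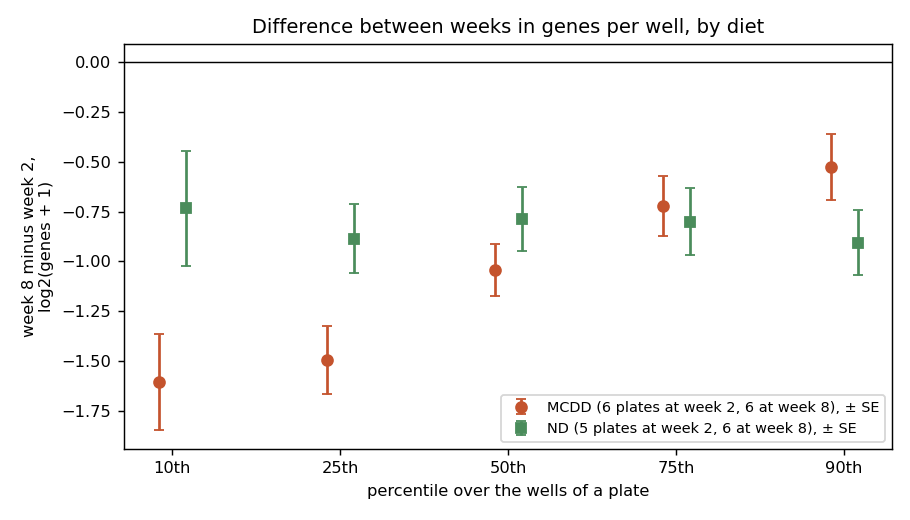
Week 8 minus week 2 difference in log2(genes + 1) at 5 percentiles of the wells of a plate on MCDD (circles, 6 plates per week) and ND (squares, 5 and 6 plates), mean over both batches ± SE. MCDD runs from -1.61 to -0.53 and ND lies between -0.91 and -0.73 as a mean of batches that differ (from -0.02 to -1.25 in SB12 and from -1.0 to -0.78 in SB16), and no difference between the diets passed after adjustment.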

How the data were processed

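Single liver CD45+ cells were sorted into capture plates, and their mRNA was barcoded, pooled and amplified by T7 transcription, per the labels' protocols. Per the submitters' processing notes, bcl2fastq 2.15.0.4 was used and the build was mm10. What aligned and counted the reads, and with which filters, is not given in the sources used here. For each well the deposited tables hold a total, a whole-number count, and how many genes were detected, a count not corrected for depth. Per the file headers the total is only named a total, so whether it counts reads or molecules is not known.

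Of 120 listed plates, 118 were analysed. A liver CD45+ plate of week 2 on ND was not analysed here. The plate was the replicate. Percentiles (10, 25, 50, 75 and 90) over cell wells were compared as log2(percentile + 1) by a two-sided exact permutation test within sequencing batch, with batches weighted by plates. SE came from the variance pooled within batch and week. Benjamini-Hochberg adjustment ran within each family (5 percentiles of genes, 5 of the total, 2 ratios, 3 shares, 6 values at matched total, 7 differences between diets), and an adjusted p under 0.05 was a call. Bins of total needed at least 5 wells on every plate. The rule on naming genes and the marker lists named none, since no value per gene was used, so plates are named where they were lowest, highest or on the other week's side. The members and readouts were chosen with earlier results of these data known. Tests were checked on simulated plates. Same-numbered plates of the 2 weeks correlated in their deviations at 0.43 and 0.14 in SB16 and at -0.90 in SB12, where 2 plates per week mirror each other and give 1 value. Not every correlation was above 0.1 and no label says that a number marks a shared animal or day, so the numbers were not taken as pairs. Values were computed in Python 3.11.15 with scipy 1.17.1, pandas 2.3.3, numpy 2.4.6 and matplotlib 3.10.9.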

Additional observations from a re-analysis of the deposited data

Results flagged for a closer look

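In 30 checks for the highest or lowest plate standing apart within its diet and week, 4 values were marked, and chance marks about 1 in 20. The week 2 MCDD plate 1.1 stood above the other 9 plates of its week in its totals, with a 10th percentile of 19344.1, a 25th of 40264.5 and a 90th of 214045. These 3 values describe 1 plate and are not separate events. Its median of 557.5 genes lay within the range of the other week 2 plates. The week 8 MCDD plate 1.1 had the highest 10th percentile of genes of its week, 81.9, still below all 4 week 2 plates of its batch.

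A well listed as empty, O2 of the week 2 MCDD plate 2.6, had a total of 7085849, above each of the 380 cell wells of its plate, with 1167 genes. Of the cell wells of that plate, 19 had more genes.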

How the results depend on the processing

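Of 402 values recomputed under other settings, 354 were marked the same, and of 425 with 1 plate left out, 409 were. The mark went to values that kept their direction and their side of the threshold. Where a setting could not reach the threshold, or an uncalled value changed sign, a move within the SD between plates also counted. On untransformed values such moves counted at any size. The lower genes at each percentile kept their call with each plate left out. The difference at matched total ranged from -0.78 to -0.58 with 1 plate left out, and the MCDD minus ND difference at the 10th percentile from -1.12 to -0.70. The cause of the changes below was not tested.

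In SB12 alone, with 2 plates per week, the smallest p is 0.333 in the exact permutation test. There the total differed by -0.22, 0.10 and 0.15 at the 10th, 25th and 90th percentiles and the share with at least 1000 genes by -4.34 points. MCDD minus ND was 0.14, 0.53 and 0.92 at the 50th, 75th and 90th percentiles and 0.42 for the total. In SB16 alone, with 4 plates per week, the 90th percentile (-0.63), the share with at least 1000 genes (-9.41 points) and genes at matched total (-0.58) did not pass.

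Minima on genes hold the low percentiles of both weeks near the minimum. Among wells with at least 100 genes the 75th over 25th and 90th over 10th ratios (0.10 and 0.0788) were lost, and MCDD minus ND was 0.0367 at the 10th percentile and 0.0412 at the 50th. Among wells with at least 200 genes, a setting added after the data had been seen, the ratios reversed (-0.0412 and -0.12). There the total at the 10th percentile differed by 0.00112, and MCDD minus ND was 0.00155 at the 25th percentile and 0.0689 at the 50th. On untransformed genes the lowest bin minus the highest reversed to 106.75.

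Keeping only wells above the highest total of the plate's empty wells left too few wells (under 20) on the week 2 plates 2.6, 1.1 and AB183 and the week 8 plate 2.1. With 3 against 5 plates no week comparison passed. Genes at the 5 percentiles differed by -1.06, -0.68, -0.52, -0.55 and -0.58, the ratios by 0.13 and 0.48, the shares by -4.13, -14.1 and -21.4 points and genes at matched total by -0.53. MCDD minus ND was 0.36, 0.74 and 0.88 at the 10th, 25th and 50th percentiles and 1.04 for the total.

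With the plate number as a replicate block, 4 pairs within the shared batches gave -1.35, -0.98 and -0.50 at the 10th, 50th and 90th percentiles, with 0.125 the smallest p the exact test allows. Over all batches, 8 pairs gave -1.51, -1.11 and -0.64 (p = 0.00781 each, exact sign-flip test). The pairs outside the shared batches set plates of different sequencing batches side by side, so batch and week cannot be told apart in them. They include the week 8 plate 1.3, whose empty wells had a median of 314.5 genes. No block was run for the comparison of diets.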

Other observations

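At week 8 the MCDD plates whose number begins with 1 had richer top wells than the plates whose number begins with 2, a pattern noticed after the values had been seen and given here as values only. In each of the 5 pairs with the same second digit and batch, the 90th percentile of genes was higher on the plate beginning with 1. The values were 884.1 and 513.4 (1.1 and 2.1), 972.1 and 615.9 (1.2 and 2.2), 825.2 and 398.1 (1.3 and 2.3), 637.4 and 538 (1.5 and 2.5), and 825.5 and 695.7 (1.6 and 2.6). The share of wells with at least 1000 genes was also higher in 5 of 5 pairs, and the median total in 2 of 5. On MCDD at week 2 the 90th percentile was higher in 2 of 3 such pairs, on ND at week 8 in 3 of 5 and on ND at week 2 in 3 of 4.

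The empty well P2 followed the same digit at week 8 on MCDD. It held 722, 819, 683 and 317 genes on plates 1.2, 1.3, 1.5 and 1.6, but 16 on plate 1.1, and between 12 and 20 on the 5 plates beginning with 2. At week 2 it held 10 to 38 genes on all 10 MCDD plates. Another empty position, O2, had the highest total of the 4 empty wells on 18 of the 20 MCDD plates.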
